A study of Mus musculus with 8 samples.

Results

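The CC chemokines described here are 10 ligand genes, Ccl2, Ccl3, Ccl4, Ccl5, Ccl6, Ccl7, Ccl8, Ccl9, Ccl12 and Ccl22, taken by gene symbol from a table of 53647 genes. All 10 had counts, and 9 passed the filter on low counts that left 13412 genes for testing; Ccl8 did not. The table holds 8 polyA RNA libraries of leukemia macrophages of the C57BL/6 mouse strain. Macrophages of the 4 Mac libraries were kept alone, and those of the 4 E-Mac libraries (MSC-educated) were kept with mesenchymal stromal cells (MSC), the fibroblast-like support cells of bone marrow and other tissues; both cultures lasted 12 h and ended with a sort. No source used here gives the leukemia model, the origin of the MSC or the markers of the sort. Separate animals or dishes are not named in the labels, so each p-value reflects the spread of these libraries alone, which may be technical.

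CC chemokines are small secreted proteins with a pair of adjacent cysteines near the N-terminus. They bind G protein-coupled receptors on leukocytes and direct the movement of those cells, and macrophages are a major source of them. Ccl2, Ccl7 and Ccl12 attract monocytes that carry the receptor Ccr2. Ccl3, Ccl4 and Ccl5 attract monocytes, macrophages and T cells. Ccl6 and Ccl9 are ligands of Ccr1 that mouse myeloid cells make without stimulation, and Ccl22 attracts T cells with the receptor Ccr4, regulatory T cells among them.

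The cysteine pair can be seen in the coding sequences of the annotated transcripts (GENCODE M21, the mm10 build that the submitters' processing notes name). The stretches below are 54 bases long, 5′ to 3′ on the coding strand, with the codons of the adjacent cysteines in capitals. The first 4 genes are neighbours on chromosome 11, and the last pair had the longest shared stretch of any 2 members. They are shown because reads of close relatives can be hard to assign.
Ccl2: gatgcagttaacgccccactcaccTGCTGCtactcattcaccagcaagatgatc
Ccl7: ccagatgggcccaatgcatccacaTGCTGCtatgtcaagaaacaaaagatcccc
Ccl12: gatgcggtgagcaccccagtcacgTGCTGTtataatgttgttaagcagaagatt
Ccl8: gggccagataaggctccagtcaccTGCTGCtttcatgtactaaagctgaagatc
Ccl6: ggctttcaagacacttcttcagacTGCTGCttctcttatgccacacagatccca
Ccl9: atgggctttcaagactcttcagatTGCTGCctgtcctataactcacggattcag
The pair begins at codon 34 of Ccl2, 33 of Ccl7 and Ccl12, 32 of Ccl8, 50 of Ccl6 and 57 of Ccl9. Over whole coding sequences the most identical pair was Ccl3 and Ccl4, at 68.4%, Ccl12 and Ccl8 were 65.4% identical, Ccl7 and Ccl8 64.1%, and Ccl6 and Ccl9 65.1%. The longest run of bases shared by annotated coding transcripts, 1 for each member, of any of the 45 pairs of members was 25 bases, between Ccl6 and Ccl9. No source used here says how reads that match several places were counted.

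All 9 tested members rose in E-Mac and none fell. Ccl7, Ccl12 and Ccl22 had at most 8 counts in any Mac library and passed the filter only through E-Mac. For these genes a fall could hardly have been called, yet they enter the count of 9, and the 7 without overlap and the median given below. Levels are in CPM, counts per 1000000 of the library's total over the tested genes after TMM scaling, and the test was edgeR's quasi-likelihood test with Benjamini-Hochberg adjustment over all 13412 genes, with calls at an adjusted p under 0.05. Of all genes tested, 58.3% were called and 29.5% were higher in E-Mac. In 7 of the 9 members all 4 E-Mac libraries lay above all 4 Mac libraries, which held for 26.7% of the tested genes. The members' median log2 fold change was 4.35, beside 0.00 over all tested genes and 0.67 over the genes called higher. The changes spanned a wide range, from 1.34-fold for Ccl6 to 1133-fold for Ccl7. With scaling by total counts alone, the median of all genes moved by -0.14 and the calls went from 3954 higher and 3860 lower to 2996 higher and 5018 lower; 8 of the 9 members then rose, and none had a negative value.

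Total counts per library ran from 11646025 to 15740846. The macrophage label was checked against 15 core macrophage genes, all of which had counts in sums of 15438 to 16641 CPM in Mac and 12267 to 15921 in E-Mac. Lyz2 held most of the Mac sum and fell, with means of 11204 (Mac) and 6147 CPM (E-Mac), so the sums say little about the other genes. Among the 15 genes 8 rose and 4 fell, Lyz2 included in the latter, with a median log2 fold change of 0.59. The part of macrophage content in the chemokine values was not tested. Neutrophil markers were also abundant, 20 of 20 with counts, in sums of 34311 to 38110 CPM in Mac and 11828 to 19091 in E-Mac. Of these 20, 12 fell and 3 rose, beside 28.8% and 29.5% of all tested genes. The 20 stromal markers, all with counts, summed to 12.2 to 14.3 CPM in Mac. In E-Mac they summed to 82.3, 457, 57.9 and 502 CPM in libraries 1 to 4; Col3a1, Pdgfra, Lum and Loxl1 were at 0 in all Mac libraries. In bulk RNA, fewer cells of a type and less RNA per cell cannot be told apart. E-Mac 2 and E-Mac 4 also stood apart from E-Mac 1 and E-Mac 3 on the second principal component of all tested genes, at 20.6 and 28.9 against -26.2 and -22.0. Fitted changes of the members without those libraries are plotted beside the main ones, and calls of receptor and regulator genes that were lost without them are named.

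**Figure D1:**
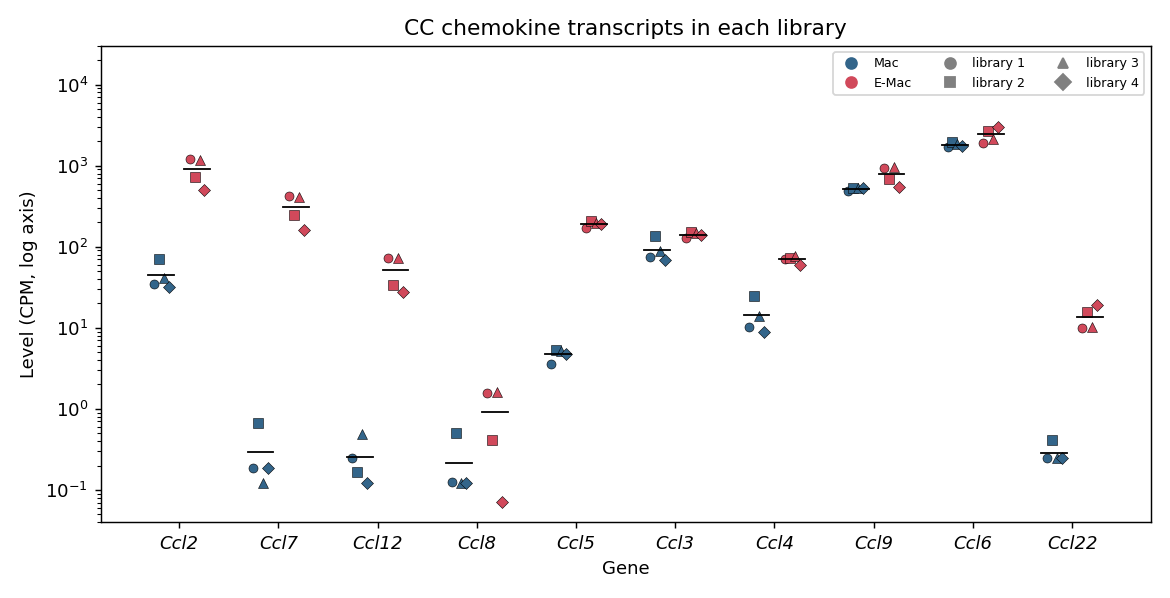
Level of each CC chemokine (CPM, log axis) in the 4 Mac (blue) and 4 E-Mac (red) libraries, with the marker shape giving the library number and a bar the group mean. Ccl7 and Ccl12 sit below 1 CPM in Mac and at 28.0 CPM or more in E-Mac, while Ccl6 and Ccl9 are high in both groups.

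Ccl7 and Ccl12, both monocyte attractants of the Ccr2 axis, had the largest changes of the 9. Ccl7 stood at 0.186, 0.666, 0.123 and 0.185 CPM in Mac 1 to 4, or 16 counts in all, and at 417, 249, 413 and 159 CPM in E-Mac 1 to 4. Every E-Mac library was far above every Mac library, and E-Mac 4 was the lowest of its group. Its log2 fold change was 10.15 ± 0.58 (SE, n = 4 and 4; edgeR adjusted p = 2.00e-06), the third largest rise of all genes tested, and 10.81 without Mac 2, the Mac library with 8 of the 16 counts.

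Ccl2, the main ligand for Ccr2, was already present in Mac, at 34.98, 69.9, 40.9 and 31.7 CPM. In E-Mac it reached 1211, 717, 1174 and 497 CPM, a mean of 899.7 ± 350.0 (SD, n = 4) against 44.4 ± 17.4. The groups did not overlap, Mac 2 was the highest of the Mac libraries and E-Mac 4 again the lowest of its group (log2 fold change 4.35 ± 0.41, edgeR adjusted p = 5.42e-05). Ccl12, a mouse ligand of Ccr2 closely related to Ccl2, measured 0.248, 0.167, 0.491 and 0.123 CPM in Mac and 72.2, 33.8, 72.2 and 28.0 in E-Mac. The 16 Mac counts of Ccl12 became 2878 in E-Mac, a log2 fold change of 7.56 ± 0.56 (edgeR adjusted p = 4.01e-06), with no overlap.

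Ccl8, the remaining gene of that group and a ligand of Ccr8 in mice, was close to absent. It had 2, 6, 2 and 2 counts in Mac and 20, 6, 24 and 1 in E-Mac, so E-Mac 1 and 3 lay above the Mac libraries while E-Mac 4 lay below them. It was too low for the main test. With no filter on low counts its log2 fold change was 2.13 ± 0.68 (edgeR adjusted p = 0.00850). Without E-Mac 2 and 4 it was 2.93 ± 0.62, but that choice kept the 2 E-Mac libraries where Ccl8 was highest. Ccl8 passed the filter there only through them, so this value is no separate sign of a rise.

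Ccl3, Ccl4 and Ccl5, the attractants of monocytes and T cells, changed by very different amounts. Ccl5, which attracts T cells and monocytes, was 3.60, 5.33, 5.22 and 4.81 CPM in Mac and 169, 209.7, 196 and 190.0 in E-Mac. It had the tightest replicates of the strongly changed members, with a log2 fold change of 5.34 ± 0.12 (edgeR adjusted p = 4.73e-12). T and NK cells also transcribe Ccl5; their 12 markers, 11 with counts and Cd3e at 0 in every library, summed to 19.97 to 29.6 CPM in Mac and 4.85 to 8.63 in E-Mac. Cd8a went the other way, with 2 counts in Mac and 34 in E-Mac, as did Gzmb with 38 and 91, which did not pass. The part of T and NK cells in the Ccl5 value was not tested.

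Ccl4, an attractant of macrophages and T cells, measured 10.3, 24.4, 14.1 and 8.94 CPM in Mac and 71.6, 73.6, 76.8 and 60.3 in E-Mac. The groups were well separated, with Mac 2 the highest control (log2 fold change 2.31 ± 0.27, edgeR adjusted p = 8.00e-05). Its neighbour Ccl3, a ligand of Ccr1, was 74.5, 137, 88.8 and 69.0 CPM in Mac and 129, 153, 146 and 138 in E-Mac. Mac 2 lay inside the E-Mac range, and the rise was 0.62 ± 0.19 on the log2 scale (edgeR adjusted p = 0.0204). Leaving out E-Mac 2, E-Mac 3 or E-Mac 4 ended the Ccl3 call (edgeR adjusted p = 0.0544, 0.0526 and 0.0701), as did leaving out E-Mac 2 and 4 together (0.201) and omitting the filter (0.0850).

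Mac 2 was the highest Mac library for every member except Ccl12, though by little for Ccl5 and Ccl9. For Ccl7, Ccl8 and Ccl22 this rests on at most 8 counts. Mac 2 was also highest among Mac libraries for the early response genes Fosb and Jun. Fosb was 261, 794, 490 and 281 CPM in Mac 1 to 4, and Jun 609, 1717, 1063 and 821. The ratio of Ccl2 to Ccl3 counts hardly varied within Mac, at -1.08 ± 0.07 on the log2 scale (SD, n = 4). The part of an early response in the chemokine values was not tested.

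Ccl6 and Ccl9, not corrected for length, made up most CC chemokine counts in both groups. Ccl6 was 1704, 1962, 1856 and 1726 CPM in Mac and 1896, 2660.3, 2157 and 3001 in E-Mac. E-Mac 1 lay inside the Mac range, and the rise was small, 0.42 ± 0.12 on the log2 scale (edgeR adjusted p = 0.0107). It was 0.17 ± 0.06 without E-Mac 2 and 4 (edgeR adjusted p = 0.0175) and 0.28 with total-count scaling, where the call was lost (edgeR adjusted p = 0.0674).

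Ccl9 was 489, 531, 525 and 525 CPM in Mac and 929, 693, 952 and 551 in E-Mac. All E-Mac libraries were above all Mac libraries, although E-Mac 4 by little (log2 fold change 0.59 ± 0.15, edgeR adjusted p = 0.00477). Neutrophils also transcribe Ccl6. The summed neutrophil markers were lower in E-Mac, as given above, although 3 of the 20 rose. This sum was higher in E-Mac 2 and 4 (19091 and 16601 CPM) than in E-Mac 1 and 3 (11828 and 12545). The part of neutrophils in the values of Ccl6 and Ccl9 was not tested. The annotated span of the transcript E230016K23Rik covers Ccl6 on the opposite strand, and its counts fell from 765 to 199 over the groups. Whether exons of both share bases was not checked. No source used here gives the strand setting of the counting, so reads from any shared bases could not be told apart.

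Ccl22, a chemokine of dendritic cells and alternatively activated macrophages, was 0.248, 0.416, 0.246 and 0.247 CPM in Mac and 9.98, 15.7, 10.2 and 19.0 in E-Mac. From 17 counts in Mac it rose to 772, with no overlap (log2 fold change 5.57 ± 0.32, edgeR adjusted p = 9.23e-09). Ccl17, its neighbour on chromosome 8 and the other ligand of Ccr4, had 16 counts in Mac and 38 in E-Mac and was too low to test. The 10 dendritic cell markers, all with counts, summed to 242 to 258 CPM in Mac and 554 to 637 in E-Mac, but 4 of them fell and 3 rose, the receptor gene Ccr7 among the latter. Bst2, also an interferon-induced gene, made up most of the E-Mac sum at 394 to 541 CPM. Flt3 (-2.46 on the log2 scale) was among those that fell, and the part of dendritic cells in the Ccl22 value was not tested.

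**Figure D2:**
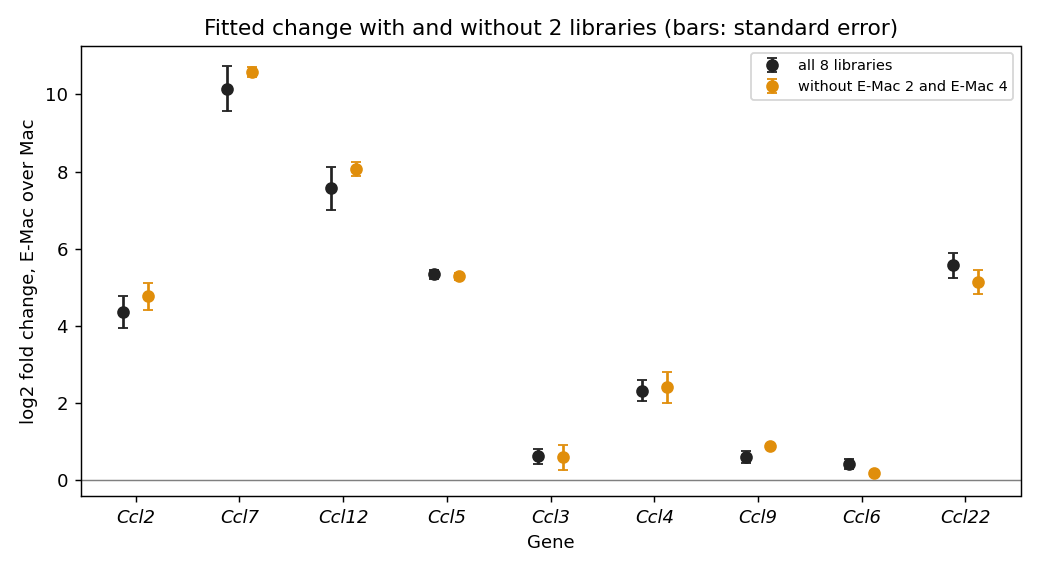
Fitted log2 fold change of E-Mac over Mac for the 9 tested CC chemokines, with standard errors, from all 8 libraries (black) and without E-Mac 2 and E-Mac 4 (orange). Leaving the 2 libraries out moved Ccl2 from 4.35 to 4.77, Ccl9 from 0.59 to 0.87 and Ccl6 from 0.42 to 0.17, and turned no sign.

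The 4 E-Mac libraries did not agree on all members, and the members split into 3 sets. Ccl2, Ccl7, Ccl12, Ccl8 and Ccl9 were all higher in E-Mac 1 and 3 than in E-Mac 2 and 4. Ccl6 and Ccl22 had the opposite order, and Ccl3, Ccl4 and Ccl5 had neither. Over all tested genes the first order held for 33.0% and the reverse for 25.8%, so either order is common in these libraries. For Ccl2, Ccl7, Ccl12 and Ccl9 the order was opposite to that of the stromal marker sum. Fibroblast-like cells also transcribe Ccl2 and Ccl7. Without the 2 libraries of high stromal sums the log2 fold change was 4.77 ± 0.35 for Ccl2 and 10.58 ± 0.13 for Ccl7. Those 2 libraries were also the lowest of E-Mac for both genes, so leaving them out had to raise these values. The stromal sums of E-Mac 1 and 3, 82.3 and 57.9 CPM, still exceeded the 12.2 to 14.3 CPM of Mac. The part of stromal cells in the Ccl2 and Ccl7 values was not tested.

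**Figure D3:**
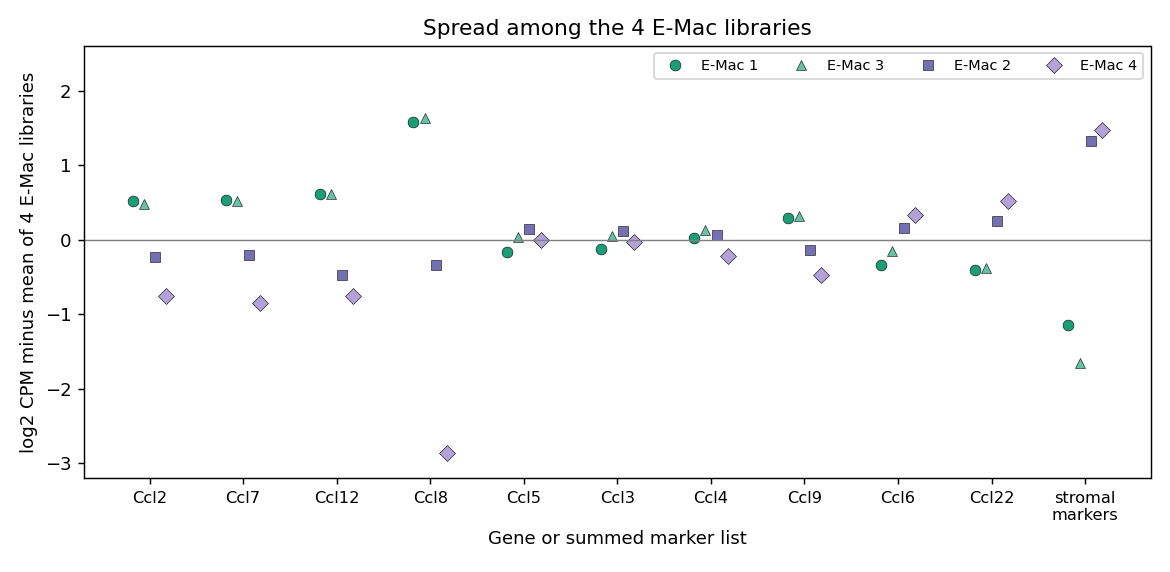
Deviation of each E-Mac library from the mean of the 4 E-Mac libraries (log2 CPM) for the 10 CC chemokines and the sum of 20 stromal markers. E-Mac 1 and 3 (green) lie above E-Mac 2 and 4 (purple) for Ccl2, Ccl7, Ccl12, Ccl8 and Ccl9, and below them for Ccl6, Ccl22 and the stromal sum.

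Whether members changed by the same factor was asked through their count ratios, which do not depend on library scaling. Of the 45 pairs, 34 had a ratio that differed between the groups. Each had an exact two-sided permutation p of 0.0286, the smallest that 4 against 4 libraries allow. The adjusted permutation p over the 45 pairs was 0.0378 for each, and it depends on how many pairs reach that smallest p. Ratios with Ccl7, Ccl8, Ccl12 or Ccl22 rest on at most 8 counts of that gene in each Mac library. Ccl7, Ccl12 and Ccl22 passed the filter only through E-Mac, which favoured a difference in their pairs. Ccl7 counts were far below Ccl2 counts in Mac and much closer to them in E-Mac: the log2 ratio of Ccl2 to Ccl7 was 7.30 ± 0.59 and 1.55 ± 0.06 (SD, n = 4). Across the E-Mac libraries this ratio hardly varied, although Ccl2 itself ran from 497 to 1211 CPM. Ccl12 rose less than Ccl7, with a log2 ratio of Ccl7 to Ccl12 of 0.03 ± 1.48 in Mac and 2.61 ± 0.18 in E-Mac. Ccl4 rose more than Ccl3, their log2 ratio of Ccl3 to Ccl4 falling from 2.74 ± 0.20 to 1.004 ± 0.15.

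In 11 pairs the ratio did not pass, 4 of them with the sparse Ccl8. Ccl5 and Ccl22 differed by -0.06 in their log2 ratio between groups (exact permutation, adjusted p = 0.829), Ccl6 and Ccl9 by -0.16 (adjusted p = 0.748) and Ccl3 and Ccl9 by 0.10 (adjusted p = 0.818). A p that misses the threshold does not show that these pairs changed alike.

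Levels of different genes can be set against each other only per length, here CPM per kilobase of annotated exon. In Mac the order began with Ccl6 at 1009 ± 67.1 CPM per kb (SD, n = 4), followed by Ccl9 at 169.9 ± 6.33, Ccl3 at 121 ± 40.7, Ccl2 at 39.0 ± 15.3, Ccl4 at 21.9 ± 10.6 and Ccl5 at 4.94 ± 0.824. Ccl12, Ccl8, Ccl7 and Ccl22 were all under 1 CPM per kb, and the ranges of neighbours among these 4 overlapped. So did those of Ccl9 and Ccl3, and of Ccl2 and Ccl4.

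In E-Mac Ccl6 was still first in this order, at 1353 ± 277 CPM per kb, but Ccl2 followed at 791 ± 308 and Ccl7 at 387 ± 159. Ccl9 came next at 257 ± 63.4, then Ccl5 at 199 ± 17.5, Ccl3 at 184 ± 13.5, Ccl4 at 107 ± 10.9, Ccl12 at 96.0 ± 44.6, Ccl22 at 5.90 ± 1.90 and Ccl8 at 1.79 ± 1.54. The ranges of the first 6 overlapped from neighbour to neighbour, as did those of Ccl4 and Ccl12. Of the summed level per kb, Ccl6 took 73.8% in Mac and 40.0% in E-Mac, whereas Ccl2 took 2.85% and 23.4% and Ccl7 0.0265% and 11.4%. The lengths are those of GENCODE M21, which may not be the annotation behind the counts.

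Position on the chromosome sorted the members only in part. On mm10, Ccl2 (chromosome 11, 82035571 to 82037453), Ccl7 (82045712 to 82047525), Ccl12 (82101845 to 82103400) and Ccl8 (82115185 to 82116799) lie within 81.2 kb. The only other gene of the table inside that stretch is Ccl11, the eosinophil attractant, with 0 counts in Mac and 2 in E-Mac. After a gap of 1409 kb follow Ccl5 (83525778 to 83530518), Ccl9 (83572919 to 83578636), Ccl6 (83587882 to 83593087), Ccl3 (83647844 to 83649355) and Ccl4 (83662584 to 83664683) within 139 kb. Ccl22 lies on chromosome 8, 94745590 to 94751699, and all 10 are annotated as protein coding. Within the first stretch a 1133-fold change (Ccl7) and a gene with 2 counts (Ccl11) are neighbours, and within the second the change went from 1.34-fold (Ccl6) to 40.5-fold (Ccl5).

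**Figure D4:**
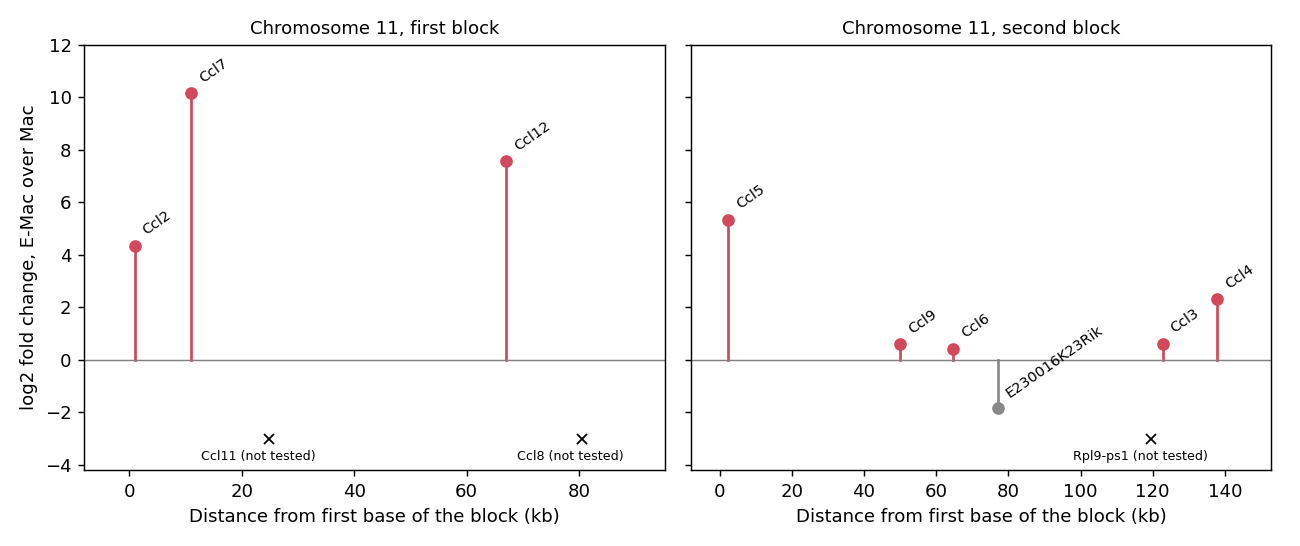
Log2 fold change of E-Mac over Mac along the 2 stretches of chromosome 11 that hold CC chemokine genes, by distance from the first base of each stretch (kb). Members are red, another tested transcript is grey, and crosses mark genes that were not tested, drawn at an arbitrary height; Ccl7 reaches 10.15 and Ccl6 0.42.

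Promoter sequences of 6 members, Ccl3, Ccl6, Ccl8, Ccl9, Ccl12 and Ccl22, were matched in a RefSeq table (GRCm38.p6, the mm10 assembly), each 300 bases long from 250 before to 50 after the start; Ccl2, Ccl4, Ccl5 and Ccl7 are missing entries. The search took both strands and 5 motifs: an NF-kB type motif, an interferon response type motif, TGANTCA for AP-1, TTCNNNGAA for STAT factors and TATAAA for the TATA box. They occurred in 4.79%, 3.44%, 7.81%, 8.30% and 13.6% of all 32851 promoters of that length. The 250 bases before the start are shown for Ccl12 and Ccl8, neighbours with 2878 and 51 counts in E-Mac, and for Ccl9, with matches in capitals.
Ccl12: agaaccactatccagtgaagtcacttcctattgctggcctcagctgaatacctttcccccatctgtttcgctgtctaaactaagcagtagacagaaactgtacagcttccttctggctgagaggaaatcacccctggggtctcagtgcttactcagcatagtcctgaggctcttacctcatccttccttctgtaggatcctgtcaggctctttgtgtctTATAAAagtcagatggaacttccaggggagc
Ccl8: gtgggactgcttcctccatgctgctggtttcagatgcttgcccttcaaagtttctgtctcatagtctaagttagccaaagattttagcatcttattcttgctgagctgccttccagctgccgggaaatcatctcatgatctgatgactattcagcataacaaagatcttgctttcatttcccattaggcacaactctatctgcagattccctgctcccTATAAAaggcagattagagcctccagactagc
Ccl9: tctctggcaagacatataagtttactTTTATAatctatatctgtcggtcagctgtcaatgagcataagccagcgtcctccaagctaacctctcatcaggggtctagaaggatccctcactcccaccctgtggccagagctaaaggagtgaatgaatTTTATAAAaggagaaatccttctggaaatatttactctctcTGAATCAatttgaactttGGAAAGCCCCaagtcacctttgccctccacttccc
These lie at chr11:82101595-82101844 (plus strand), chr11:82114935-82115184 (plus strand) and chr11:83578637-83578886 (minus strand). Ccl12 and Ccl8 had only a TATA box, which began 31 and 32 bases before the start. Ccl9 had an NF-kB type match 35 bases and an AP-1 type match 53 bases before the start, besides TATA box letters 92, 94 and 224 bases before it, the first 2 of which overlap. Ccl3, Ccl6 and Ccl22 had none of the 5 motifs in this window. A match describes letters, not a bound site.

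The 14 other CC ligand genes of the mouse remained low, 8 with any count and 1 tested. Ccl25, a thymic and gut chemokine, averaged 5.07 ± 0.901 CPM in Mac and 4.05 ± 0.928 in E-Mac and did not pass (log2 fold change -0.33 ± 0.21, edgeR adjusted p = 0.196). Ccl24, an eosinophil attractant, had 28 counts in Mac and 45 in E-Mac, and Ccl27a had 35 and 13. Ccl1, Ccl11, Ccl20 and Ccl28 had at most 6 counts in any group, and Ccl19, Ccl21a, Ccl21b, Ccl21c, Ccl26 and Ccl27b had 0 counts in all libraries.

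Of 14 CC receptor and decoy genes described here 7 were tested, of which 5 rose and 1 fell, beside 29.5% of all tested genes that rose and 28.8% that fell. Ccr7 and Ccr9, with 6 to 18 and 6 to 13 counts in the Mac libraries, passed the filter through E-Mac, which favoured a rise for them. Ccr2, the receptor of Ccl2, Ccl7 and Ccl12, was 1264, 1175, 1213 and 1316 CPM in Mac and 754, 556, 749 and 493 in E-Mac. It fell by 0.96 on the log2 scale (SE 0.13, edgeR adjusted p = 2.99e-05), without overlap, and so stood opposite to its ligands. Ccr2 is itself a monocyte marker. The 7 monocyte markers, Ccr2 included and all with counts, summed to 11602 to 12404 CPM in Mac and 6163 to 7199 in E-Mac. Of them 4 fell, with Fn1 (means of 3443 and 774 CPM) and Chil3 (3423 and 647) the largest in Mac. The other way went 2, Ly6c2 (946 and 2559) and Vcan (230 and 550). The part of monocytes in the fall of Ccr2 was not tested.

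Ccr1, the receptor of Ccl3, Ccl5, Ccl6 and Ccl9, rose from 254 ± 7.34 to 772 ± 22.3 CPM (1.60 ± 0.06, edgeR adjusted p = 2.92e-10). Ccr3, the eosinophil receptor, rose from 206 ± 13.6 to 738 ± 287 (1.84 ± 0.25), and by 1.32 ± 0.07 on the log2 scale without E-Mac 2 and 4. The 10 eosinophil and mast cell markers, 9 with counts and Tpsb2 at 0, summed to 1921 to 2191 CPM in Mac and 1143 to 1636 in E-Mac, mostly from Prg2 (means of 1482 and 1001 CPM). Of the 9 tested, 7 fell and 0 rose, beside 28.8% and 29.5% of all tested genes. The surface markers Siglecf and Il5ra did not pass, with means of 118 and 129 CPM and of 48.2 and 53.1 CPM. Like Ccr3, Siglecf and Il5ra were higher in E-Mac 2 and 4 than in E-Mac 1 and 3. Epx had the reverse order, at 231, 112, 260 and 174 CPM in E-Mac 1 to 4. The part of eosinophils in the Ccr3 value was not tested.

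Ccr7, the lymph node homing receptor, rose from 0.805 ± 0.437 to 31.3 ± 10.5 CPM (5.31 ± 0.36), and had the same order of E-Mac libraries as Ccl22. Ccr9 rose from 0.610 to 3.04 CPM and Ccr1l1 from 2.30 to 4.55, a call that was lost without E-Mac 2 and 4, and the scavenging receptor Ccrl2 did not pass (0.50 ± 0.43, edgeR adjusted p = 0.359). Ccr4, the receptor of Ccl22, had 0 counts in every library, Ccr8, the receptor of Ccl8, had 0 in Mac and 2 in E-Mac, and the decoys Ackr1, Ackr2 and Ackr4 had at most 14 counts in any group.

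**Figure D5:**
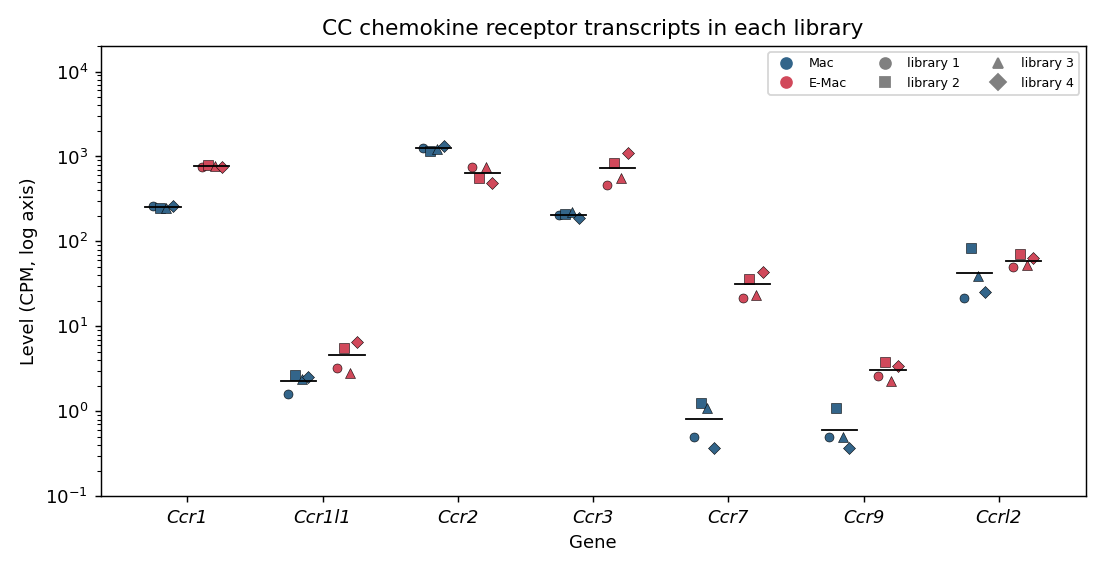
Level (CPM, log axis) of 7 tested CC chemokine receptor genes in the 4 Mac (blue) and 4 E-Mac (red) libraries, marker shape giving the library number and bars the group means. Ccr2 is lower in all E-Mac libraries and Ccrl2 overlaps, while Ccr1, Ccr1l1, Ccr3, Ccr7 and Ccr9 are higher.

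Of 23 transcription factors known to act on CC chemokine genes, all tested, 10 rose and 7 fell, beside shares of 29.5% and 28.8% over all tested genes. Their median log2 fold change was 0.15; by total-count scaling 9 rose and 7 fell, with a median of 0.00. The interferon regulatory factor Irf7 rose from 393 ± 17.2 to 2359 ± 170.1 CPM (2.59 ± 0.08). The AP-1 subunits Fosb (-3.70 ± 0.44) and Jun (-2.24 ± 0.34) fell (largest edgeR adjusted p of the 3 factors = 0.000753). Without E-Mac 2 and 4 the counts were also 10 and 7, but not of the same genes, since Jund, Cebpb and Junb no longer passed.

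Of 18 receptors for signals that induce these chemokines, 10 rose and 6 fell (median 0.65), beside 29.5% and 28.8% over all tested genes. Without E-Mac 2 and 4 the counts were the same, with Il1r1 no longer passing and Csf1r passing. Tlr3, a sensor of double-stranded RNA, rose from 4.93 ± 0.548 to 18.8 ± 3.46 CPM (1.93 ± 0.16), and Csf2rb, the shared beta chain of the GM-CSF receptor, from 486 ± 8.87 to 1507 ± 272 (1.63 ± 0.11). Il6st, the signalling chain of IL-6 family receptors, fell (-1.25 ± 0.09; edgeR adjusted p of at most 2.25e-07 for the 3).

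Among 8 factors of mRNA decay and stability, 4 rose and 2 fell, with the same background of 29.5% and 28.8% over all tested genes. With upper-quartile or total-count scaling 2 rose and 3 fell, and the median went from 0.14 to 0.04 and -0.01. Without E-Mac 2 and 4, Zc3h12a no longer passed, leaving 3 that rose. Zfp36, which promotes decay of chemokine and cytokine mRNA, was 1811, 3645, 2595 and 2079 CPM in Mac and 1099.9, 1243, 1216 and 1064 in E-Mac (-1.13 ± 0.19, edgeR adjusted p = 0.000393). It did not overlap, and Mac 2 was again the highest Mac library. Zc3h12c (1.39 ± 0.12) and Zfp36l1 (1.12 ± 0.08) rose (larger edgeR adjusted p = 5.24e-07).

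The genes with profiles nearest to each member were found by the root mean square difference of log2 CPM. Each gene was centred on its mean over the 8 libraries. Candidates were tested genes of at least 10 CPM in the higher group, with CC chemokine ligands and numbered gene models left out. Ccl7 was nearest to the arginase gene Arg1 (0.43) and to the collagenase gene Mmp13 (0.91), and Ccl12 to the chemokine Pf4 (0.38) and to Spp1, which encodes osteopontin (0.47). Ccl2 lay nearest to the lysosomal protease gene Ctsl (0.29) and the chemokine Cxcl10 (0.30). Ccl5 was nearest to C3ar1, a complement receptor gene (0.32), and Ccl22 to the serotonin receptor gene Htr7 (0.33), which was also second for Ccl5 (0.34). Ccl4 was nearest to the early response gene Ier3 (0.12) and Ccl3 to the kinase gene Plk2 (0.11). Ccl6 was nearest to Csnk1e (0.04) and Ccl9 to Vim (0.07). The difference between groups dominates this measure, and profiles of small change have many near neighbours.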

How the data were processed

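The authors deposited 1 table of raw counts, whole reads per gene symbol, with 1 column for each of the 8 libraries. Listed in the submitters' processing notes, without roles or versions, are the build mm10 and the tools HISAT2, featureCounts, Subread, bcl2fastq and DESeq2; no source used here gives the annotation, the strand setting or the treatment of multi-mapped reads. Of 53673 names, 26 with the form of dates (0.133 to 0.160% of counts) were left out. Genes passing filterByExpr (minimum count 10, minimum total 15) entered the test, run in edgeR 4.0.16 under R 4.3.3 with TMM factors and robust quasi-likelihood fitting on group alone. The standard error was the log2 fold change divided by the square root of F. DESeq2 1.42.0 and limma-voom (limma 3.58.1) were alternatives. The test was checked on simulated data. Ratios used an offset of 0.5 counts. Coding sequences were aligned with Biopython 1.88. Replicates were compared by chi-square tests of their counts, and every pair within a group differed by more than sampling noise (at least 4.85 per degree of freedom).

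All 10 members were named. From other lists, the 3 called genes of largest change at 10 CPM or more could be named with values, and the tested ligands and receptors; 1 item of the receptor list is not reported here. The members and lists were chosen with earlier results of these data known. For each member the 2 nearest genes in profile could be named too. Bst2, Flt3, Cd8a, Gzmb, Prg2, Siglecf, Il5ra, Epx, Ly6c2, Vcan, Fn1, Chil3, Lyz2, Il1r1, Csf1r, Csf2ra, Irf5, Zc3h12a, E230016K23Rik, Jund, Junb, Cebpb and the pairs set out by name were picked after their values were seen. Alternatives covered scaling, filter, tool, replicate block, a test against a fold of 1.5, the ratio offset, and left-out libraries.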

Additional observations from a re-analysis of the deposited data

Results flagged for a closer look

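In 4 of 20 sets of 4 values (10 genes in 2 groups), 1 library lay far from the other 3 by Dixon's test, which chance gives for about 1 set in 20. Mac 2 stood apart for Ccl7 at 0.666 CPM, for Ccl8 at 0.4995 CPM and for Ccl22 at 0.416 CPM, in each case above the other Mac libraries. These rest on 8, 6 and 5 counts. Mac 1 stood apart for Ccl9, at 489 CPM below 525 to 531 CPM in the others. None was in E-Mac.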

How the results depend on the processing

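Every alternative tried kept the direction of each of the 9 tested members: RLE, upper-quartile and total-count scaling, no filter, 10 CPM in 4 libraries (which removed Ccl22), DESeq2, limma-voom, the replicate block, a test against a fold of 1.5, each library left out, and E-Mac 2 and 4 left out. Ccl2, Ccl4, Ccl5, Ccl7, Ccl12 and Ccl22 passed in all those that tested them. Against a fold of 1.5, 2968 genes in place of 7814 passed, and Ccl3, Ccl6 and Ccl9 did not (edgeR adjusted p = 0.586, 1 and 0.637). With each library left out in turn, 7233 to 7986 genes and 8 or 9 members passed. Same-numbered libraries did not deviate together (correlations of -0.11 to 0.03, with 1 of 4 Mac libraries closest to its own number); with the replicate block 7458 genes and 9 members passed. Among the other lists, Ccrl2 passed with the replicate block (0.67 on the log2 scale, edgeR adjusted p = 0.0315), and Csf2ra, Il1r1 and Irf5 did not (0.0625, 0.0655 and 0.0580). An offset of 2 counts left 34 pairs. Without E-Mac 2 and 4 no pair could pass, since 4 against 2 libraries allow no p under 0.05. Ccl8 was limited by depth: its log2 ratio of mean CPM was 2.07, and 1.65 to 2.89 with each library left out, the highest without Mac 2.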

Other observations

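The noncoding transcript E230016K23Rik, on the strand opposite Ccl6, fell (-1.82 on the log2 scale, edgeR adjusted p = 2.98e-07) while Ccl6 rose slightly. It was chosen after its values were seen.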
